A study of Homo sapiens with 24 samples.

Results

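The genes described here are 8 regulators of the G1 phase of the cell cycle: the kinases CDK6 and CDK4, the D cyclins CCND1, CCND2 and CCND3, the inhibitors CDKN2A and CDKN2C, and the retinoblastoma gene RB1. They were chosen by gene symbol, with earlier results of these data known, out of 16796 genes listed in at least 1 of the 5 deposited tables. RNA was sequenced from 4 established human small-cell lung cancer (SCLC) lines grown in culture, which received 0.1 nM lurbinectedin or its vehicle DMSO for 24 h. Lurbinectedin is a DNA-binding drug used in SCLC that blocks transcription by RNA polymerase II. ISL1 encodes a homeobox transcription factor. The submitters call 2 lines ISL1 "high" (H187 and H209) and the other 2, H82 with SHP-77, ISL1 "low". The 8 groups of 3 libraries are H187, H209, H82 and SHP-77 under lurbinectedin and the same 4 lines under DMSO. The labels name no introduced gene or allele, and ISL1 status belongs to each line, so the classes are compared through 2 lines each.

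As background, a D cyclin binds CDK4 or CDK6 and the active kinase phosphorylates the RB protein, which then lets go of E2F transcription factors and allows genes of DNA replication to be expressed. The INK4 proteins, p16 from CDKN2A and p18 from CDKN2C, bind CDK4 and CDK6 and keep D cyclins off. RB1 is lost or inactivated in most SCLC, and tumours without working RB often carry much p16 and depend little on the D cyclin kinases.

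Total counts over the genes listed for a line were 24226553 to 36415190 per library. CPM below are counts scaled for library size with the trimmed mean of M values (TMM) over the 11408 genes that all 4 line tables list. Values of different genes are set side by side only as CPM per kilobase (kb) of the deposited gene length. ISL1 followed its labels: it had 218 ± 4.40 CPM in H187 and 163 ± 4.36 CPM in H209 under lurbinectedin, against 4.01 ± 0.869 CPM in H82 and 0.679 ± 0.179 CPM in SHP-77 (SD, n = 3 each). The neuroendocrine markers INSM1, SYP and NCAM1 were listed in all 4 lines, NEUROD1 in all but SHP-77, and CHGA in none. The leukocyte markers PTPRC, CD3E and LYZ were listed in no line. The fibroblast and endothelial lists summed to at most 9.15 and 8.89 CPM in any library.

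The 8 genes were not listed equally. CDK6, CDK4, CCND3, CDKN2A and CDKN2C were in all 4 line tables. CCND2 was listed only for H82 and CCND1 only for SHP-77, and neither was in the table of the 2 classes. RB1 was missing from the H187 table, and its counts there come from the table of the 2 classes, which holds the treated libraries alone. Every gene listed there summed to at least 125 counts over its 12 libraries. In the line tables, the smallest sum over 6 libraries was 59 (H187), 69 (H209), 68 (H82) and 67 (SHP-77) counts. A gene not listed is therefore called that and given no level.

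**Figure D1:**
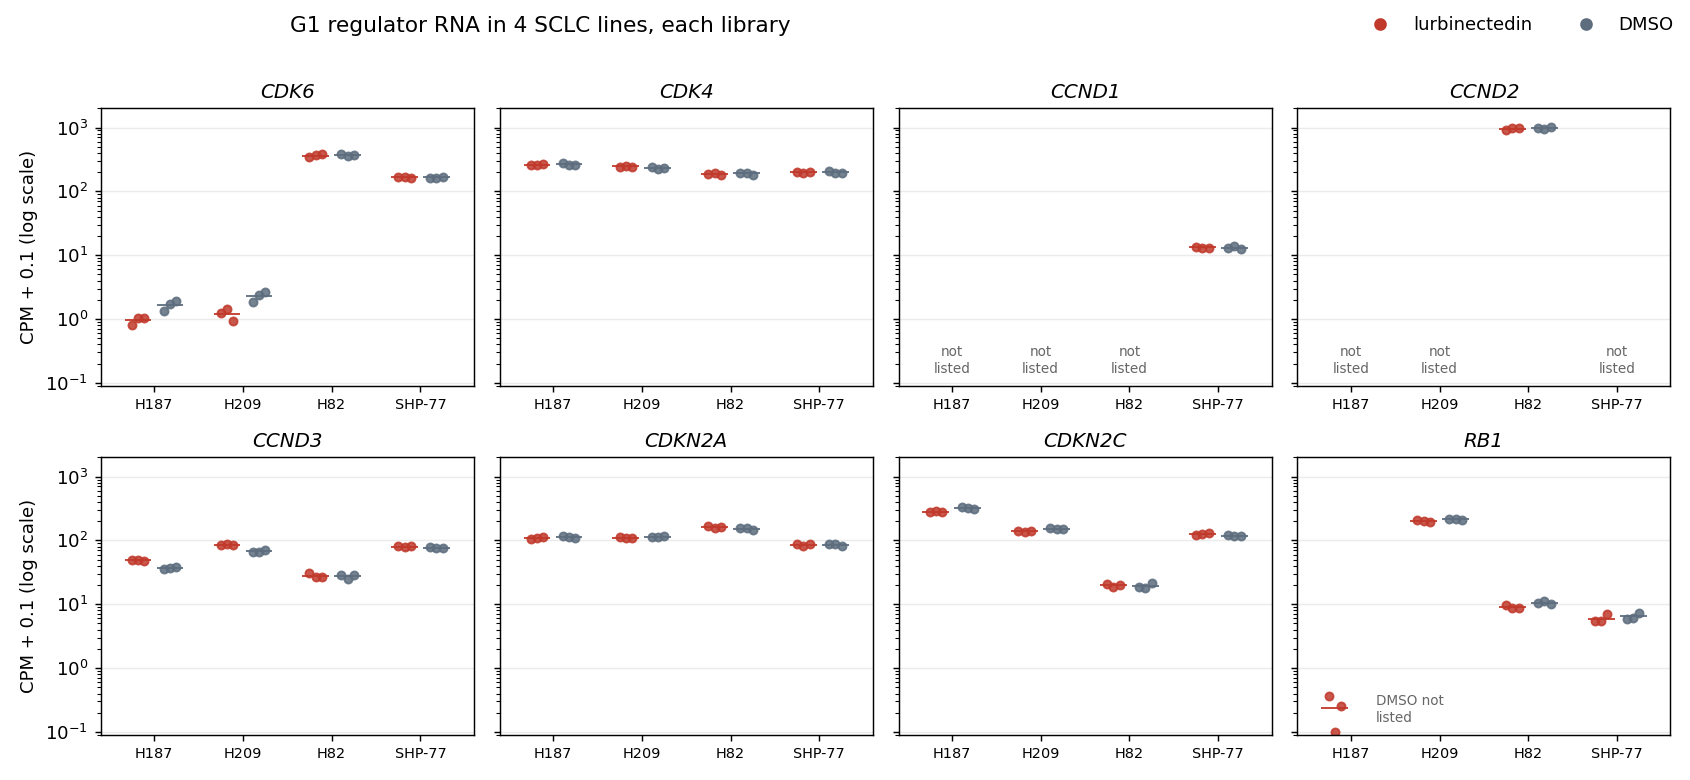
Level of each gene in every library, in CPM plus 0.1 on a log axis, with lurbinectedin (red) left of DMSO (grey) in each line and a short bar at the mean of 3 libraries. CDK6 lies between 0.712 and 2.51 CPM in H187 and H209 and above 160 CPM in H82 and SHP-77, CCND2 appears in H82 alone, and RB1 is above 190 CPM only in H209.

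CDK6 was the member that set the lines apart most among the 5 listed in all of them. Under lurbinectedin it had 0.712, 0.925 and 0.947 CPM in H187 and 1.17, 1.31 and 0.828 CPM in H209. These values rest on 19, 30 and 30 counts in H187 and 38, 34 and 26 counts in H209. Under the drug it had 343, 368 and 380.3 CPM in H82 and 167, 169.8 and 163 CPM in SHP-77. The libraries of both ISL1-high lines were thus far below those of both ISL1-low lines, with none in between. Under DMSO CDK6 had 1.22, 1.63 and 1.82 CPM in H187 and 1.73, 2.25 and 2.51 CPM in H209, against 382, 361 and 372 CPM in H82 and 163, 164 and 170.5 CPM in SHP-77. The order was H82, SHP-77, H209 and H187, with no overlap between the first 3 and with overlapping libraries of H209 and H187. The mean level of H82 was 422 times that of H187 under lurbinectedin and 239 times under DMSO. In bulk RNA, fewer cells with CDK6 and less CDK6 RNA per cell cannot be told apart, and this holds for all values here.

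On the mean of log2(CPM + 0.25) over both treatments, CDK6 differed by -7.29 in the libraries of H187 and H209 relative to those of the ISL1-low lines. That was the most negative difference among the 11408 genes listed in all 4 lines (rank 1). Of those genes, 25.4% had 12 and 12 libraries that did not overlap between the classes. CDK6, CDK4 (difference 0.366) and CDKN2C (2.1) were among these, and CCND3 (0.279) and CDKN2A (-0.062) were not. In the authors' deposited table of the treated libraries, which also lists genes missing from some lines, the log2 fold change of CDK6 for ISL1-high over ISL1-low was -8.10 and ranked 60 of 14463 from the most negative, with a false discovery rate of 1.7e-76. That rate rests on libraries nested in 2 lines a class, so it says nothing on ISL1 classes at large. These levels are a description, because CDK6 was put on the list with its pattern known, and 2 lines a class cannot tell ISL1 status apart from other differences between lines.

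CDK4, the other D cyclin kinase, varied far less across the lines. It had 257, 256 and 268 CPM in H187, 243, 252 and 240.2 CPM in H209, 189, 194 and 182 CPM in H82 and 200.4, 196 and 204 CPM in SHP-77 under lurbinectedin. Under DMSO it had 277, 263 and 260.3 CPM in H187, 238, 228 and 229 CPM in H209, 196, 196 and 183 CPM in H82 and 208, 193 and 194 CPM in SHP-77. H187 was highest under both treatments and H82 lowest, a ratio of means of 1.38 under lurbinectedin and 1.39 under DMSO. The neighbours SHP-77 and H82 overlapped under DMSO and did not under lurbinectedin.

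Per kilobase, CDK4 exceeded CDK6 in every line. The deposited length is a fixed value per gene, 11795 bases for CDK6 and 2002 for CDK4, and the shares depend on it. In H82 the order of the pair rests on this division, and which transcripts were present was not measured. CDK6 made up 0.0561% ± 0.00786 of the summed CPM per kb of the pair in H187 and 0.076% ± 0.0155 in H209 under lurbinectedin (SD, n = 3). It made up 24.7% ± 1.31 of the pair in H82 and 12.4% ± 0.436 in SHP-77 under the drug. Under DMSO the shares were 0.0994% ± 0.0227 (H187), 0.159% ± 0.0324 (H209), 24.8% ± 0.94 (H82) and 12.5% ± 0.623 (SHP-77). The ISL1-high lines thus had CDK4 RNA almost alone. The sum of both kinases varied less, with 130.1 ± 3.27 (H187), 123 ± 3.18 (H209), 125 ± 2.77 (H82) and 114 ± 1.79 (SHP-77) CPM per kb under lurbinectedin and 133 ± 4.47 (H187), 116 ± 2.87 (H209), 127 ± 3.95 (H82) and 113 ± 3.98 (SHP-77) under DMSO.

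The promoter windows of the kinase pair are shown because the 2 genes encode related proteins with such different levels. Each window runs from 250 bases before to 50 after a RefSeq start (GRCh38.p14), is read on the minus strand and is printed 5′ to 3′. Capitals mark E-boxes (CACGTG) and GC boxes (GGGCGG or its reverse complement CCGCCC), and none of these overlap each other in the 3 windows.

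CDK6, first start, chr7:92836524-92836823: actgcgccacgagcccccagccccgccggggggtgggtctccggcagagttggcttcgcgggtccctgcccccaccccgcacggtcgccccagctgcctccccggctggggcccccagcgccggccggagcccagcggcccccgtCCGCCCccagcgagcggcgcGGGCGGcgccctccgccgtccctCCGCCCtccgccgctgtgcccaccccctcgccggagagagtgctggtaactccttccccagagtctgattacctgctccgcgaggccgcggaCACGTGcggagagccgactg
CDK6, second start, chr7:92833910-92834209: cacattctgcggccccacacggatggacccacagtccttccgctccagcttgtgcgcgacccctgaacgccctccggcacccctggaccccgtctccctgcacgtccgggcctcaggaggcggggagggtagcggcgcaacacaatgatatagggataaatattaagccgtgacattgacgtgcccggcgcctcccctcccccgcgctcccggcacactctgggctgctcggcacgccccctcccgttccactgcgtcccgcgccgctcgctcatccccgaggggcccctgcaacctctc
CDK4, chr12:57752261-57752560: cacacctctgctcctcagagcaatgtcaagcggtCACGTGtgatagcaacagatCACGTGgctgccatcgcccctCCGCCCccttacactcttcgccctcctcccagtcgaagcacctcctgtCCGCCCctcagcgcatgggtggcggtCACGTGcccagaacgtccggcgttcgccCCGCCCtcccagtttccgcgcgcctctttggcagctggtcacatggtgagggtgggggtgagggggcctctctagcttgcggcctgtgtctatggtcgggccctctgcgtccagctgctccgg

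The first CDK6 window held 1 E-box and 3 GC boxes at 78.0% G and C, the second CDK6 window held none of either at 68.7%, and the CDK4 window held 3 of each at 66.0%. On both strands, an E-box was present in 7.26% and a GC box in 45.0% of all 35116 RefSeq windows of this length. The table gave 12 windows for 6 of the 8 genes. Its only RB1 window, chr13:48476200-48476499, lies inside the gene near its far end and not at the start of the gene in the files, so the RB1 promoter was not searched. None of the 12 held the cAMP response element TGACGTCA, present in 1.85% of all windows, or any of the 4 E2F forms TTTCCCGC, TTTCGCGC, TTTGCCGC and TTTGGCGC, of which at least 1 was present in 3.31%. A match is a match of letters, and nothing on binding was measured.

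CDK6 lies at chr7:92604921-92836627 on the minus strand (hg38), a span of 232 kb, and CDK4 at chr12:57747727-57752447 on the minus strand, a span of 4.72 kb. The pattern of CDK6 over the lines was not that of its neighbours. By the files' coordinates the nearest 2 listed protein-coding genes on each side are RBM48, FAM133B, SAMD9 and HEPACAM2, a choice made after the CDK6 values were seen. RBM48 averaged 28.7 and 24.6 CPM in H187 and H209 under lurbinectedin, against 20.8 and 10.9 CPM in H82 and SHP-77. FAM133B averaged 21.5 and 16.1 CPM in the ISL1-high lines, against 20.5 and 7.48 CPM in the ISL1-low lines. SAMD9 averaged 5.24 and 4.65 CPM in H187 and H209, against 0.77 and 12.6 CPM in H82 and SHP-77. HEPACAM2 likewise had its lowest level in H82, at 0.628 CPM, and its highest in SHP-77, at 16.7 CPM. None of the 4 was low in both ISL1-high lines and high in both ISL1-low lines.

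CDK4 overlaps TSPAN31, a tetraspanin gene on the other strand, with which it shares 1369 exon bases in GENCODE v29. TSPAN31 averaged 1.88 to 18.1 CPM under lurbinectedin and 1.74 to 19.0 CPM under DMSO over the lines. The library kit keeps strand, and whether the counting used it is not given in the sources used here, so reads of the pair may be shared in part.

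The D cyclins differed by line in which gene was listed. In H82, CCND2 had 906, 981 and 994 CPM under lurbinectedin and 989, 942 and 1011 CPM under DMSO. Per kilobase that was 147 ± 7.27 and 150.4 ± 5.33 CPM per kb, the highest mean of any member in any line. CCND2, cyclin D2, lies at chr12:4273736-4305356 on the plus strand. In SHP-77, CCND1 had 13.6, 13.1 and 13.1 CPM under lurbinectedin and 13, 14 and 12.3 CPM under DMSO. CCND1, cyclin D1, lies at chr11:69641105-69654474 on the plus strand.

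CCND3, cyclin D3, was the D cyclin listed in every line (chr6:41934933-42048894, minus strand). Under lurbinectedin it had 48.4, 50.01 and 48.1 CPM in H187, 83.9, 87 and 84.8 CPM in H209, 30.4, 26.9 and 26.8 CPM in H82 and 80.4, 78.1 and 82 CPM in SHP-77. Under DMSO it had 35.7, 36.6 and 37.8 CPM in H187, 66.1, 64.9 and 71.2 CPM in H209, 29.1, 25.2 and 28.4 CPM in H82 and 77.9, 75.9 and 75.5 CPM in SHP-77. H82 was lowest under both treatments, with no overlap with any other line. SHP-77 was highest under DMSO and H209 under lurbinectedin, in each case with no overlap between the 2.

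Per kilobase, CCND2 made up 94.3% ± 0.677 of the listed D cyclin RNA in H82 under lurbinectedin and 94.5% ± 0.243 under DMSO. CCND3 made up 89.2% ± 0.294 in SHP-77 under lurbinectedin and 88.8% ± 0.667 under DMSO, with CCND1 as the rest. H187 and H209 had CCND3 as their only listed D cyclin, at 15.4 ± 0.322 and 27 ± 0.516 CPM per kb under lurbinectedin and 11.6 ± 0.337 and 21.3 ± 1.06 CPM per kb under DMSO. The line with the most CDK6, H82, was thus also the one with the most listed D cyclin RNA per kilobase, while SHP-77 had CDK6 without a listed CCND2.

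**Figure D2:**
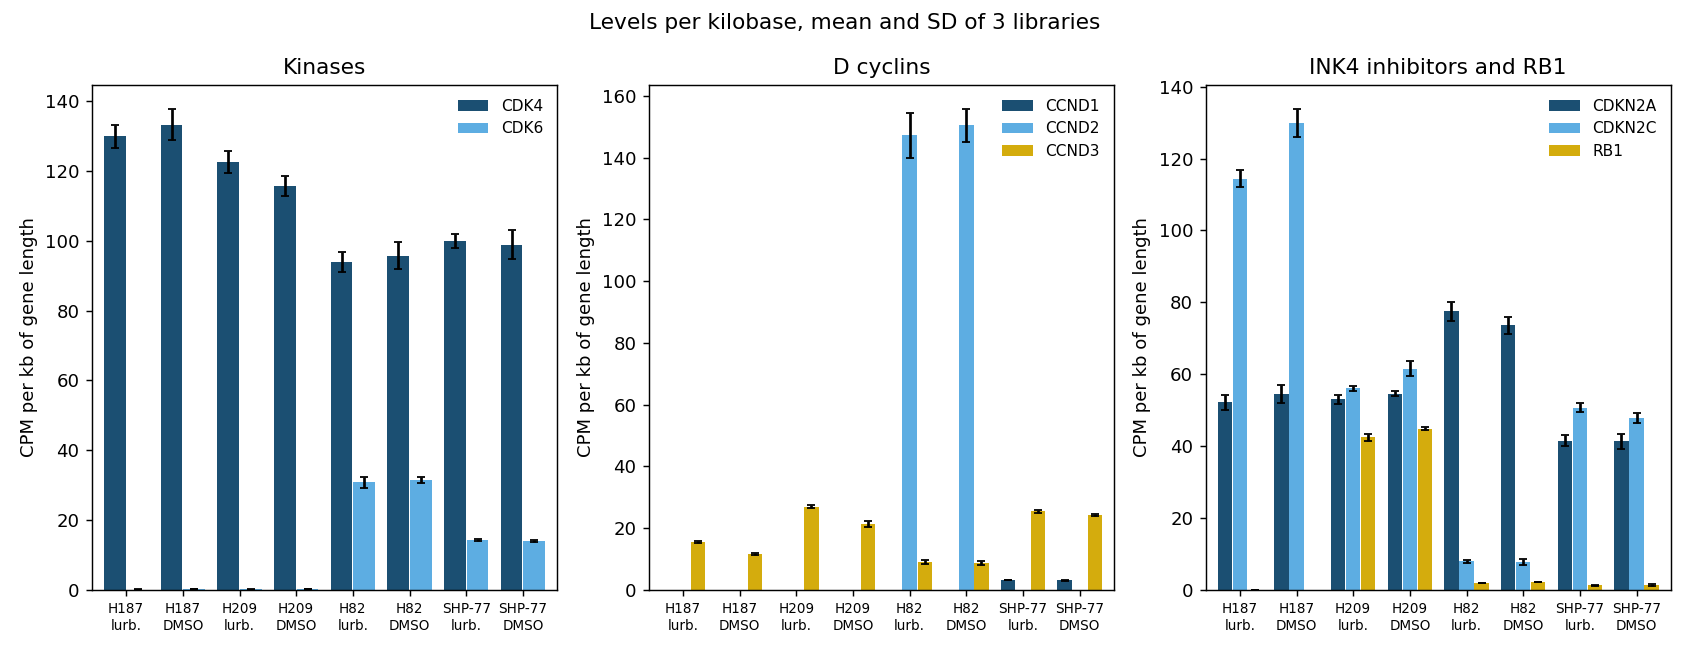
Mean CPM per kb of gene length with SD over 3 libraries for the kinases, the D cyclins, and the INK4 inhibitors with RB1, lurbinectedin (lurb.) left of DMSO in each line. A missing bar is a gene not listed there (RB1 in H187 is listed for lurbinectedin alone). CDK4 varies far less than CDK6, CCND2 dominates the D cyclins of H82 at 147 and 150.4 CPM per kb, and CDKN2C is highest in H187 and lowest in H82.

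CDKN2A was above 80 CPM in all 24 libraries. Under lurbinectedin it had 104, 108 and 113 CPM in H187, 112, 108 and 111 CPM in H209, 166, 155 and 162 CPM in H82 and 86.7, 82.9 and 89.2 CPM in SHP-77. Under DMSO it had 117, 115 and 108 CPM in H187, 113, 112 and 115 CPM in H209, 155, 156 and 147 CPM in H82 and 87.6, 88.9 and 80.8 CPM in SHP-77. H82 was highest and SHP-77 lowest with no overlap with other lines, and H209 and H187 overlapped. The locus (chr9:21967752-21994491, minus strand) encodes both p16 and, in another reading frame, p14ARF, and counts per gene do not separate the 2 transcripts. It shares 341 exon bases with the antisense gene CDKN2B-AS1 in GENCODE v29, which averaged 2.60 to 16.5 CPM under lurbinectedin and 2.36 to 16.8 CPM under DMSO.

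CDKN2C, the gene of p18, varied far more. Under lurbinectedin it had 279.6, 290.1 and 281 CPM in H187, 139, 137 and 141 CPM in H209, 20.3, 18.6 and 19.9 CPM in H82 and 122, 126 and 129 CPM in SHP-77. Under DMSO it had 328, 327 and 311 CPM in H187, 159, 149 and 150.1 CPM in H209, 18.6, 17.7 and 21.5 CPM in H82 and 122, 117 and 116 CPM in SHP-77. The order H187, H209, SHP-77 and H82 held under both treatments with no overlap between neighbours, and the mean of H187 was 14.5 times that of H82 under lurbinectedin and 16.7 times under DMSO. CDKN2C lies at chr1:50968695-50974637 on the plus strand.

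Set against the kinases, the summed CPM per kb of CDKN2A and CDKN2C was 1.28 ± 0.0349 times that of CDK4 and CDK6 in H187 and 0.89 ± 0.0362 times in H209 under lurbinectedin. It was 0.684 ± 0.0386 times in H82 and 0.808 ± 0.0117 times in SHP-77 under the drug. Under DMSO the ratios were 1.38 ± 0.0342 (H187), 1.00 ± 0.0101 (H209), 0.64 ± 0.00966 (H82) and 0.789 ± 0.0239 (SHP-77). The 2 ISL1-high lines had the higher ratios, and the ratio is one of RNA and not of protein. The order of the lines was that of CDKN2C, while CDKN2A was highest in H82. The ratio leaves out CDKN2B and CDKN2D, the other INK4 genes, which are not members.

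RB1 was abundant in H209 alone. It had 207, 203 and 198 CPM in H209, 9.48, 8.71 and 8.54 CPM in H82 and 5.30, 5.32 and 6.82 CPM in SHP-77 under lurbinectedin. Under DMSO it had 216, 215 and 211 CPM in H209, 10.3, 11 and 9.82 CPM in H82 and 5.83, 6.05 and 7.21 CPM in SHP-77. The mean of H209 was 22.7 times that of H82 under lurbinectedin and 20.7 times under DMSO, and H82 stood above SHP-77 with no overlap. In the 3 treated H187 libraries RB1 had 7, 0 and 5 counts, together 0.132 CPM with an exact 95% Poisson interval of 0.0683 to 0.231 CPM that covers counting error only. RNA level does not show whether the protein works.

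RB1 lies at chr13:48303747-48481890 on the plus strand, a span of 178 kb. Of the nearest 2 listed protein-coding genes on each side, chosen after the RB1 values were seen, all but CYSLTR2 were listed in H187. ITM2B, the next listed protein-coding gene on one side, averaged 70.3 CPM in H187, 136 CPM in H209, 123 CPM in H82 and 70.8 CPM in SHP-77 under lurbinectedin. MED4, beyond it, averaged 53.1 CPM in H187 and 51.2 CPM in H209. RCBTB2, on the other side, averaged 4.13 CPM in H187 and 9.73 CPM in H209. CYSLTR2, beyond RCBTB2, was not listed in H187 or SHP-77 and averaged 2.11 CPM in H209 and 6.59 CPM in H82. The authors' deposited table gives RB1 a log2 fold change of 3.75 for ISL1-high over ISL1-low, and of the ISL1-high lines H209 alone lies above the ISL1-low lines.

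For the 5 genes listed in all lines, the protein-coding genes with the most similar pattern were found by Pearson's r of log2(CPM + 0.25) over 24 libraries, among 10256 genes with a mean of at least 1. For CDK6 they were C1QBP (r = 0.996), RUVBL1 (0.995) and MYBBP1A (0.995). C1QBP, a mitochondrial matrix protein, averaged 103 and 126 CPM in H187 and H209, against 659 and 456 CPM in H82 and SHP-77 under DMSO. Like CDK6, it was highest in H82 and higher in both ISL1-low lines than in both ISL1-high lines. For CDKN2C they were UHMK1 (0.996), TOGARAM1 (0.995) and PAIP1 (0.994), for CDKN2A RPL35A (0.989), WBP11 (0.985) and PPA1 (0.985), for CCND3 FBF1 (0.985), ARRDC1 (0.980) and STC2 (0.980), and for CDK4 ZNF468 (0.977), SH3GLB1 (0.975) and MOB2 (0.975). The 24 libraries come from 4 lines, so each r rests on little more than 4 line means and is a description.

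The question of the treatment was what 24 h of lurbinectedin did to these genes in each line. In H187 and H209, CDK6 and CDKN2C were lower and CCND3 was higher under the drug, and in H209 CDK4 was slightly higher. In H82 and SHP-77 no member passed the test. The test was edgeR's quasi-likelihood test on all genes of each line table with Benjamini-Hochberg adjustment, called at an adjusted p under 0.05. The members were chosen with these results in view, so the tests support nothing on their own, and nothing is read from how many members were called. The share of all genes whose treated and DMSO libraries do not overlap was not computed, so nothing is read from such separation either.

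In H187, 3 of 5 listed members were called, 1 higher and 2 lower, where 24.9% of 14023 genes were called, 12.2% higher and 12.7% lower. In H209, 4 of 6 were called, 2 higher and 2 lower, where 45.2% of 14421 genes were called, 22.7% higher and 22.5% lower. In H82, 0 of 7 were called by edgeR and 0 by DESeq2, with 1 at an unadjusted p under 0.05. There 2.92% of 13516 genes were called, 1.55% higher and 1.38% lower, or 395 genes. Without H82 DMSO replicate 3 it was 1397 genes, and without any other single H82 library 93 to 195. In SHP-77, 0 of 7 were called by either tool, with 2 at an unadjusted p under 0.05, and 5.19% of 14190 genes were called, 1.98% higher and 3.21% lower, or 737 genes. That count was 417 without SHP-77 lurbinectedin replicate 1, 431 without DMSO replicate 2 and 436 without lurbinectedin replicate 3. Members had a median log2 fold change of -0.060 (H187), -0.054 (H209), -0.016 (H82) and 0.017 (SHP-77), and that of all genes lay between 0.0007 and 0.0044 in each line.

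CDK6 fell in both lines where it was scarce. Its log2 fold change was -0.83 ± 0.24 (SE) in H187 (edgeR adjusted p = 0.015) and -0.98 ± 0.22 in H209 (adjusted p = 0.00023). All 3 treated libraries lay below all 3 DMSO libraries in each. The call in H187 was lost without DMSO replicate 3 (-0.70, edgeR adjusted p = 0.069) and without lurbinectedin replicate 1 (-0.73, adjusted p = 0.069), and over all alternatives the adjusted p ran from 0.00085 to 0.069. In H82 and SHP-77, where CDK6 was abundant, the approximate 95% intervals of the log2 fold change were -0.10 to 0.059 and -0.050 to 0.062, and the groups overlapped.

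CDK6 spans 232 kb, and genes of a like span had lower medians under the drug than shorter genes in all 4 lines. Among genes spanning 100 to 300 kb, log2 fold changes had a median of -0.083 in H187 and of -0.097 in H209, with 24.9% of 1966 and 39.9% of 1953 genes called lower. For genes of that span at 0.5 to 3 CPM, as CDK6 was there, the medians were -0.19 and -0.20, with 9.06% of 276 and 16.0% of 287 called lower. Genes spanning 10 to 100 kb had a median of 0.027 in H187 and in H209, and genes under 10 kb had medians of 0.019 in H187 and 0.044 in H209. In H82 and SHP-77, where CDK6 was not called, the medians were -0.035 and -0.042 at 100 to 300 kb, with 1.73% and 5.58% called lower. There they were 0.006 and 0.008 at 10 to 100 kb, and 0.05 and 0.024 under 10 kb. Shorter genes at 0.5 to 3 CPM were not set apart, and the part of gene length in the fall of CDK6 was not tested.

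CCND3 rose in both ISL1-high lines. Its log2 fold change was 0.42 ± 0.046 in H187 (edgeR adjusted p = 9e-07) and 0.35 ± 0.037 in H209 (adjusted p = 1.2e-10). Treated and DMSO libraries did not overlap in either line. By the files' coordinates CCND3 spans 114 kb, and 3.87% of genes spanning 100 to 300 kb were called higher in H187 and 11.0% in H209. RefSeq also places starts in the windows chr6:41941759-41942058 and chr6:41939156-41939455, near its far end at 41934933, and which start was used was not measured. The share called higher was 15.3% (H187) and 26.2% (H209) at 10 to 100 kb, and 12.3% and 24.6% under 10 kb. In SHP-77 the treated libraries also lay above the DMSO libraries, by 0.071 ± 0.034, which did not pass (edgeR adjusted p = 0.28). In H82 the interval was -0.094 to 0.15 and the libraries overlapped.

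CDKN2C fell in H187, with a log2 fold change of -0.18 ± 0.037 (edgeR adjusted p = 0.0012), and in H209, with -0.13 ± 0.033 (adjusted p = 0.0015), with no overlap between groups. Both falls were small next to the gap between lines. In SHP-77 the value was 0.086 with an interval of 0.025 to 0.15 (edgeR adjusted p = 0.12), and in H82 the interval was -0.10 to 0.18.

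CDK4 was higher in H209 by 0.089 ± 0.032 (edgeR adjusted p = 0.019), with no overlap between groups. This call was lost in the authors' deposited table (false discovery rate 0.057), in a fit of all 24 libraries (edgeR adjusted p = 0.055), and without DMSO replicate 2 (0.092), DMSO replicate 3 (0.063) or lurbinectedin replicate 2 (0.12). CDK4 values in the other lines were -0.031 in H187, -0.016 in H82 and 0.017 in SHP-77, and the intervals spanned -0.11 to 0.044, -0.095 to 0.063 and -0.044 to 0.077. In these 3 lines the treated and DMSO libraries overlapped.

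The remaining members did not pass in any line. CDKN2A had log2 fold changes of -0.060 (H187), -0.035 (H209), 0.084 (H82) and 0.011 (SHP-77), with edgeR adjusted p of 0.4, 0.4, 0.29 and 0.93. In H209 the treated CDKN2A libraries lay below the DMSO libraries without overlap, even at so small a change. CCND2 had -0.022 ± 0.042 in H82 and CCND1 0.019 ± 0.069 in SHP-77 (edgeR adjusted p = 0.84 and 0.93). RB1 was below zero in each line that lists it, at -0.072 ± 0.032 (H209), -0.21 ± 0.086 (H82) and -0.12 ± 0.12 (SHP-77), with edgeR adjusted p of 0.06, 0.2 and 0.66. Its treated libraries lay below the DMSO libraries without overlap in H209 and H82, though edgeR on all libraries of the line called neither. For RB1 in H209, DESeq2 gave an adjusted p of 0.045, and edgeR gave 0.036 without DMSO replicate 3 and 0.044 without lurbinectedin replicate 1.

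**Figure D3:**
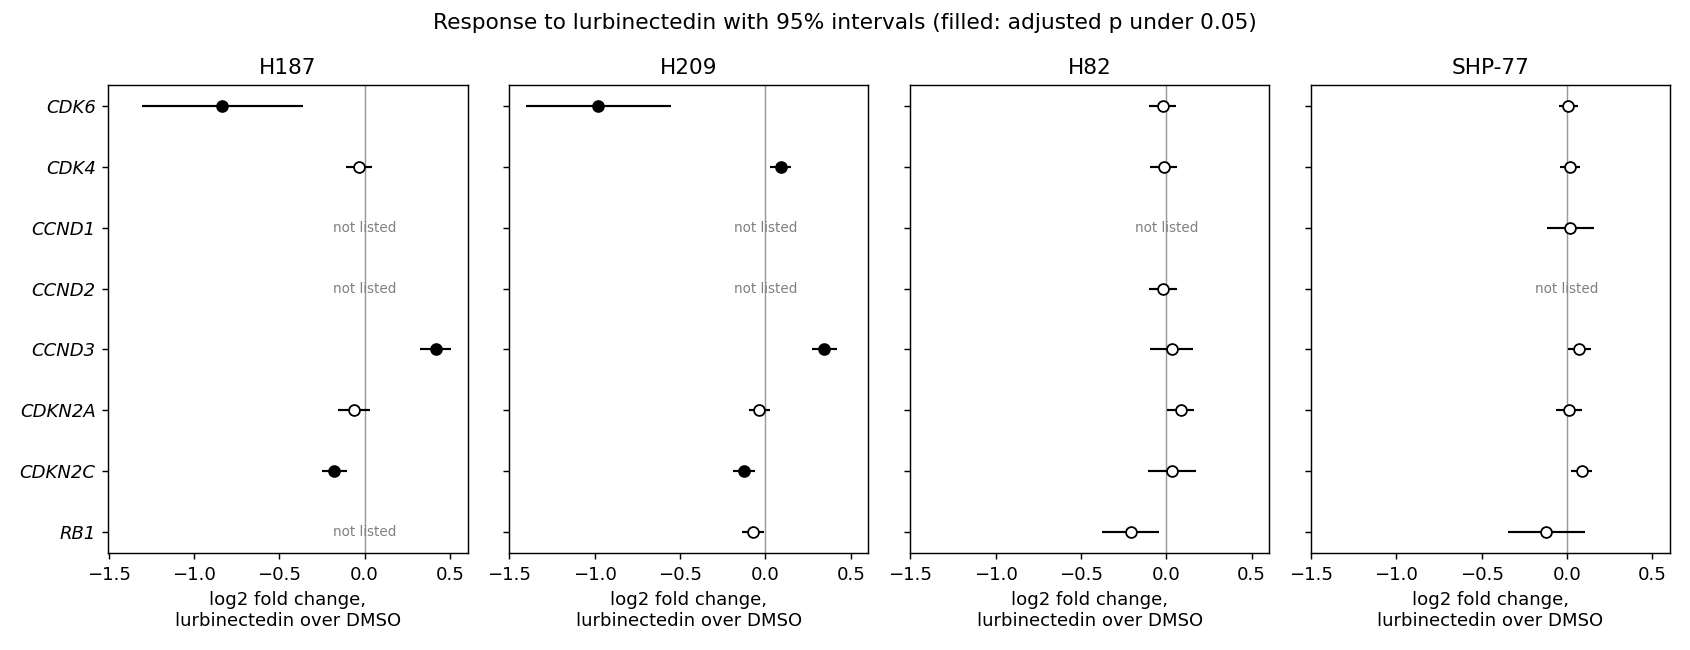
Log2 fold change of each gene, lurbinectedin over DMSO, with its approximate 95% interval in each line, where a filled point has an edgeR adjusted p under 0.05 and an open point has not. CDK6 and CDKN2C are lower and CCND3 is higher in H187 and H209, and the points of H82 and SHP-77 lie close to 0, RB1 in H82 the farthest at -0.21.

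Whether the response itself differed was tested in one fit of all 24 libraries over the 11408 shared genes, taking the mean effect of the 2 ISL1-high lines less the mean effect of the 2 ISL1-low lines. The difference was -0.90 ± 0.13 for CDK6 (edgeR adjusted p = 1.1e-06), 0.33 ± 0.048 for CCND3 (adjusted p = 9.7e-07) and -0.21 ± 0.045 for CDKN2C (adjusted p = 0.00037). For CDK4 the interval of the difference was -0.041 to 0.10. CDKN2A had -0.093 ± 0.042 (edgeR adjusted p = 0.087), which passed without H187 DMSO replicate 3 (0.036) or H187 lurbinectedin replicate 3 (0.044). In all, 3 of 5 members were called, where 31.4% of all genes were. A test of any difference among the 4 lines called the same 3 genes, where 33.5% of all genes were called, with edgeR adjusted p of 9.7e-06 for CDK6, 1.3e-05 for CCND3 and 0.001 for CDKN2C. Libraries are nested in 2 lines a class, so the tests compare these 4 lines and not ISL1 classes at large.

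The rest of the G1/S machinery was read from 5 lists of 40 genes in all, also drawn up with earlier results known. In H187, 14 of 39 listed genes were called higher and 9 lower, where 12.2% of all genes were called higher and 12.7% lower. In H209, 15 of 38 were called higher and 9 lower, where 22.7% of all genes were called higher and 22.5% lower. In H82, 1 of 35 was called, lower (2.92% of all genes called), and in SHP-77, 4 of 38 higher and 1 lower (5.19% of all genes called). Over the lists the median log2 fold change was -0.018 (H187), 0.009 (H209), -0.026 (H82) and 0.004 (SHP-77). In the difference between the classes, 22 of 35 were called, 14 higher and 8 lower, where 31.4% of all genes were called. The counts for each list below stand against the same shares of all genes, and in lists of so few genes nothing is read from them.

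Among pocket proteins, E2F and DP factors, the partners of RB, 6 of 12 were called higher and 1 lower in H187, and 6 higher and 2 lower in H209 (24.9% of all genes called in H187 and 45.2% in H209). E2F7 and E2F8, repressors of the family, rose by 0.63 and 0.62 in H187 and by 0.76 and 0.90 in H209 on the log2 scale. E2F2, an activator, averaged 138 ± 1.24 CPM in H209 under lurbinectedin and 74.9 ± 1.53 CPM under DMSO (SD, n = 3), a log2 fold change of 0.89 (edgeR adjusted p = 2.2e-26), and rose by 0.30 in H187. In SHP-77, E2F1 and E2F2 rose by 0.13 and 0.10. E2F1 also rose by 0.30 in H187 and 0.52 in H209.

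CDK2 and its cyclins did not all move one way. All 6 listed genes were called in H187 and in H209, 4 higher and 2 lower in each, against 24.9% and 45.2% of all genes. Cyclin E genes, which drive entry into S phase, were higher: CCNE1 averaged 26.8 ± 0.46 CPM in H187 under lurbinectedin and 18.3 ± 0.405 CPM under DMSO, and CCNE2 rose by 0.37 in H187 and 0.46 in H209. CCNE1 also rose by 0.20 in H209. CDC25A, the phosphatase that activates CDK2, rose by 0.35 in H187 and 0.51 in H209. CCNA2, cyclin A2, which acts in S phase and G2, was lower, with 124 ± 1.25 CPM in H209 under lurbinectedin and 190.0 ± 6.82 CPM under DMSO (log2 fold change -0.61), and fell by 0.38 in H187. In H82, CCNE2 was the 1 called gene of the 40, at -0.22 (edgeR adjusted p = 0.048), and in SHP-77 CCNA1 was higher by 0.15 (adjusted p = 0.049). CCNA1 was called lower in H187 and H209, by 0.31 and 0.51.

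Of the other CDK inhibitors, 1 of 4 was called higher and 2 lower in H187, and 1 higher and 1 lower of 4 in H209. CDKN1A, the p21 gene and a target of p53, averaged 93 ± 2.59 CPM in H209 under lurbinectedin and 48 ± 1.54 CPM under DMSO (log2 fold change 0.96, edgeR adjusted p = 2.2e-25). It rose by 0.19 in H187. CDKN2B, the p15 gene next to CDKN2A, fell by 0.20 in H187 and by 0.19 in H209, and CDKN2D, the p19 gene, fell by 0.21 in H187. In H209 CDKN2D was -0.15 and did not pass (edgeR adjusted p = 0.054). Of the INK4 genes among the members, CDKN2C was called lower in both lines and CDKN2A in neither. Of all genes, 12.7% were called lower in H187 and 22.5% in H209.

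Among genes of CDK activation and turnover, 1 of 12 was called higher and 4 lower in H187. In H209, 2 of 11 were called higher and 4 lower, a share near the 45.2% of all genes called there. GSK3B, a kinase that marks cyclin D1 for degradation, fell by 0.27 in H187, 0.20 in H209 and 0.11 in SHP-77. SKP1, a subunit of SCF ubiquitin ligases, fell by 0.13 in H187 and 0.25 in H209. MNAT1, an assembly factor of the CDK-activating kinase, fell by 0.20 in H187 and 0.16 in H209. FBXO31, an F-box protein that targets cyclin D1, rose by 0.22 in H209. CKS1B, a CDK-binding subunit, rose by 0.11 in SHP-77. The DREAM complex represses cell cycle genes in resting cells. In its MuvB core, 2 of 5 genes were called in H187 and in H209, both higher. Of all genes, 12.2% were called higher in H187 and 22.7% in H209, and 24.9% and 45.2% in either direction. LIN37 rose by 0.42 in H187 and 0.54 in H209, and LIN54 by 0.15 and 0.31.

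**Figure D4:**
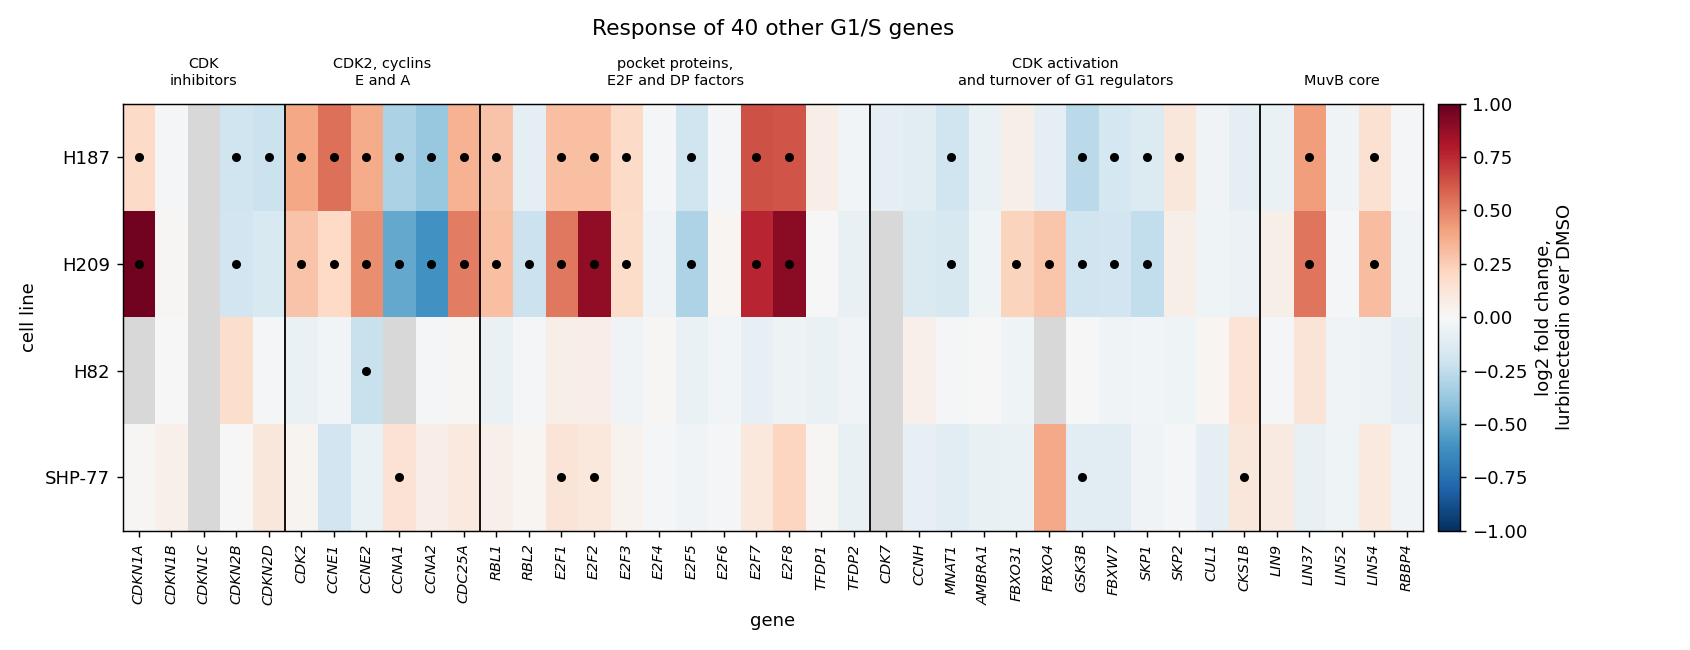
Log2 fold change, lurbinectedin over DMSO, of the 40 other G1/S genes (columns, grouped by list) in each line (rows), on a colour scale from -1 to 1, where a dot marks an edgeR adjusted p under 0.05 and grey a gene not listed. Dots mark 23 of 39 genes in H187, 24 of 38 in H209, 1 of 35 in H82 and 5 of 38 in SHP-77. Of all genes, 24.9% (H187), 45.2% (H209), 2.92% (H82) and 5.19% (SHP-77) were called.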

How the data were processed

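The submitters' processing notes name the hg38 genome with STAR 2.7.10a, featureCounts, Subread 2.0.3 and edgeR 4.2.0, and give no roles. The annotation, strand setting and low-count filter are not given in the sources used here. The 5 deposited tables (one per line, one of the 12 treated libraries by class) hold raw counts per gene, the authors' log2 CPM, the authors' log2 fold changes, a signed fold change (a score, not used) of the authors, and the authors' p-values and false discovery rates. Counts of treated libraries were identical in line and class tables.

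Here counts were tested per line with edgeR 4.0.16 (R 4.3.3; TMM, filterByExpr with a minimum count of 10, glmQLFit and glmQLFTest, Benjamini-Hochberg over all genes of a table, threshold 0.05), 3 lurbinectedin against 3 DMSO libraries, with no covariate. Response differences used all 24 libraries and the 11408 shared genes. Each SE was derived from the F statistic of the test, and the 95% intervals use a normal quantile, so they are approximate and somewhat narrow. For CDKN2A in H82 the interval was 0.004 to 0.165 although the edgeR unadjusted p was 0.053. For levels, TMM factors were computed over those shared genes, on each library's column total. The script was tested on simulated data. Alternatives were DESeq2 1.42.0, relative log expression (RLE) size factors, other filters, a replicate block, 1 fit of all libraries, and each library left out.

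The members, lists and tests were chosen with earlier results of these data known. Named genes are the members, overlapping genes, ISL1, the 3 most similar genes per member, and per line the 3 called genes of each list with the smallest adjusted p. Genomic neighbours of CDK6 and RB1, chosen after their values were seen, and cell type markers are named beside these. Replicates are biological triplicates per the series text, and between replicates chi-square per gene was 2.34 to 10.6, so none was a duplicate. Promoters are from RefSeq (GRCh38.p14), where 6 of 8 symbols matched and the RB1 window is not at the start of the gene. Depth was 24226553 to 36415190 counts per library, and among the members counting error is largest for CDK6 in H187 and H209 and for RB1 in H187. Non-members under 1 CPM, such as ISL1 in SHP-77 (15 to 30 counts per library) and SAMD9 and HEPACAM2 in H82, rest on as few counts. RB1 had 142 to 237 counts per library in SHP-77 and 259 to 349 in H82, so counting error weighs on its small changes there. Some cell type markers are not reported here.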

Additional observations from a re-analysis of the deposited data

Results flagged for a closer look

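For 3 of 5 members tested the response to lurbinectedin differed between the lines in the test of the difference itself, taken as the mean effect of both ISL1-high lines less that of both ISL1-low lines. In this test 31.4% of all 11408 genes were called. The members were chosen with these results known, so nothing is read from the count. The log2 difference was -0.90 for CDK6 (edgeR adjusted p = 1.1e-06), 0.33 for CCND3 (adjusted p = 9.7e-07) and -0.21 for CDKN2C (adjusted p = 0.00037). Over 29 alternatives each, 24 of which left out 1 library, the adjusted p ran from 4.2e-09 to 1.4e-05 for CDK6, from 2e-09 to 5.6e-06 for CCND3 and from 8.3e-06 to 0.0015 for CDKN2C. For CDK6 the fall in H187 and H209 rests on 19 to 73 counts per library, against 4536 to 12982 counts per library in H82 and SHP-77. Groups of 3 libraries were not searched for outlying samples.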

How the results depend on the processing

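Counts of called members stayed within 1.5 times the reported ones under every alternative run. They ranged from 2 to 3 in H187 and from 3 to 5 in H209, were 0 in H82 and SHP-77 throughout, and were 3 to 4 for the response difference. Of 465 alternative values of single members, 7 lost a call, 5 gained one and none reversed a called direction. Under a replicate block, CDK6 in H187 was -0.85 on the log2 scale (edgeR adjusted p = 0.018) and no call of a member changed. Same-numbered libraries correlated at -0.36 to 0.28 in their deviations from group means, with 1 of 12 pairs over 0.1, so the numbers are not taken to pair samples. Over all genes the calls in H82 moved most: 395 as reported, 755 under the replicate block, 652 in the authors' deposited table, 643 in 1 fit of all libraries, 1397 without DMSO replicate 3 and 93 to 195 without any other library. In SHP-77 they were 737 as reported, 451 in 1 fit of all libraries, and 417 to 706 without 1 library, the lowest without lurbinectedin replicate 1 (417), DMSO replicate 2 (431) and lurbinectedin replicate 3 (436). The cause was not tested. Levels moved by -1.15% to 1.06% under RLE, by -6.94% to 6.99% with column totals alone, and by -6.97% to 12.6% against the authors' log2 CPM. Depth limits CDK6 in H187 and H209 and RB1 in H187 most, and to a lesser degree RB1 in H82 and SHP-77.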
